A study of Mus musculus with 21 samples.

Results

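Resident macrophages of the healthy mouse heart were compared with monocytes from the spleen of healthy mice. Of the 21 libraries of the series, 6 enter the comparison, chosen by their labels: 3 of naive R1 cardiac macrophages and 3 of naive splenic monocytes. All 6 came from untreated C57BL/6 mice. R1 is labelled Ccr2-negative and low for the MHC-II marker and was sorted from hearts. The monocytes are labelled Ccr2-positive, with no MHC-II status given, and were sorted from spleens. Each group comes from 3 independent pools of mice, per the series design. A p-value of R1 against monocytes rests on the spread between libraries within groups, estimated over all 21 libraries and 7 groups of the series. Counts from a fit on the compared groups alone are lower and are given at the end. The heart cells of each pool were sorted into R1, R2 and R3, so libraries of these 3 populations can share a pool. No age or sex is used here, and no genetic allele is named in the labels. The other groups are naive R2 (Ccr2-negative, MHC-II-high) and naive R3 (Ccr2-positive, MHC-II-high), also from the heart, and the same 3 populations from mice given CAWS, a water-soluble extract of the yeast Candida albicans. Naive R2 and R3 are used below only to show where R1 stands apart and where it does not. Organ and cell type differ together in this comparison, and so does the preparation of the cells from heart or spleen, and these cannot be told apart.

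Monocytes are made in the bone marrow, circulate in blood and wait in a splenic reservoir from which they can be released. Resident heart macrophages without Ccr2 are seeded largely before birth, persist by dividing in place, and take up dying cells, debris and iron from the muscle around them. Ccr2 is the receptor that lets monocytes leave the marrow and enter inflamed tissue, and Lyve1, Folr2 and Timd4 are surface receptors by which the long-lived resident population is usually recognised.

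Read totals were similar in both groups, at 14140007 to 18980257 assigned reads in R1 and 16118186 to 18708547 in the monocytes. Levels are given as CPM (each gene's counts scaled to a common library size, here with TMM factors). Differences are log2 fold changes of R1 over monocytes, so that positive values are higher in R1. Their standard error (SE) is approximate: the size of the log2 fold change divided by the square root of the test's F value. For genes with few counts in 1 cell type it can be smaller than the counting error. A gene is said to have risen or fallen, or to be higher or lower, where its Benjamini-Hochberg adjusted p by edgeR's quasi-likelihood test was under 0.05 over all 13275 genes tested. Monocyte replicate 2 stood apart from its group: its log2 CPM correlated at r = 0.978 and 0.976 with replicates 1 and 3, which correlated at 0.993 with each other, while R1 pairs lay between 0.985 and 0.989. Against its group, that library read the shortest genes (up to 1701 bases) higher by a median of 0.60 log2 units and moved the longest genes (from 4213 bases) by a median of -0.54; in R1 these medians stayed between -0.05 and 0.06. Calls of named genes that change without it are given where they occur, as are counts of list members that move by more than 1.5-fold. Near-zero genes of the other cell type set the size of the largest fold changes, so a value that moved by more than 1.5-fold when 1 library was left out is followed by that value.

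The 2 cell types differed at most of the genes they express. Of the 13275 genes tested, 8401 (63.3%) passed, with 4318 higher in R1 (32.5%) and 4083 lower (30.8%). These shares, 32.5% and 30.8%, are the background against which each count of list members against monocytes is to be read. The 3 R1 libraries lay above all 3 monocyte libraries, without overlap, at 32.0% of genes and below them at 29.7%. At 16-fold or more there were 803 genes higher in R1 and 318 lower. The median log2 fold change over all genes was 0.048. In the plot of levels, both groups of called genes reach down to the floor of the other cell type, and the strongest genes of each type lie far from the diagonal.

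**Figure D1:**
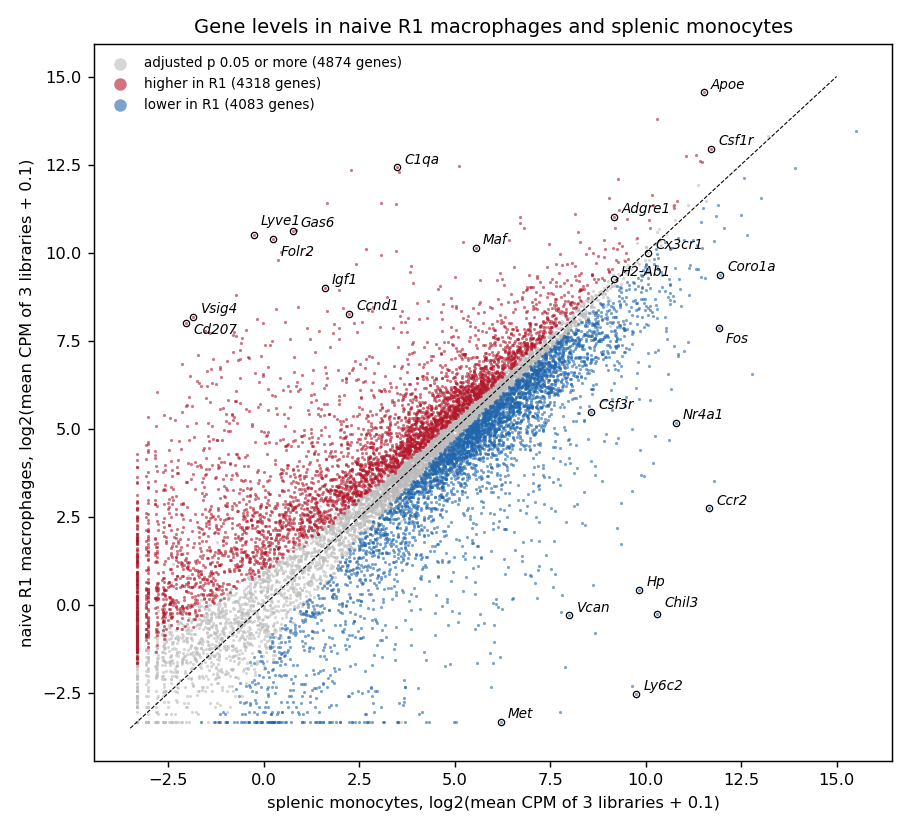
Mean level of each of the 13275 genes tested in naive R1 macrophages (y axis) against splenic monocytes (x axis), each the mean of 3 libraries on a log2(CPM + 0.1) scale used for drawing only. Red points passed higher in R1 (4318 genes), blue points passed lower in R1 (4083 genes), grey points did not pass, and the dashed line marks equal levels; Lyve1, Gas6 and C1qa lie near the top left and Ly6c2, Met and Ccr2 at the lower right.

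The sort itself was first compared with the RNA. Ccr2 (gene ID 12772, chromosome 9, 124101918 to 124109140 of GRCm38.p6) measured 5.39, 8.94 and 5.41 CPM in the 3 R1 libraries and 2997, 3607 and 3183 CPM in the 3 monocyte libraries. All R1 libraries lay far below all monocyte libraries, with a log2 fold change of -8.96 ± 0.40 (SE, adjusted p = 1.2e-12), as the gate sets it. Adgre1, which encodes the macrophage surface protein F4/80, measured 2056, 2182.3 and 1984 CPM in R1 and 557, 641 and 538 CPM in monocytes, so that both cell types held it and R1 held more (1.84 ± 0.10, adjusted p = 2.2e-13). Csf1r, the receptor for the survival factor M-CSF, was likewise present in both, at 7931, 8167 and 7725 CPM in R1 and 3614, 2840.5 and 3680.5 CPM in monocytes (1.23 ± 0.09, adjusted p = 1.4e-10). Cx3cr1, the fractalkine receptor, which is often used to separate monocyte subsets and resident macrophages, did not pass: it measured 1093, 1121 and 844 CPM in R1 and 1093, 914 and 1195 CPM in monocytes, with overlapping libraries (-0.07 ± 0.12, adjusted p = 0.65).

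The MHC class II list, whose genes load and present peptides to helper T cells, was mixed. Of 11 members, 2 were higher in R1 (18.2%, against 32.5% of all genes), 5 were lower (45.5%, against 30.8%) and 4 did not pass. Their median log2 fold change was -0.81. The beta chain H2-Ab1 measured 583, 782 and 449 CPM in R1 and 593, 837 and 284 CPM in monocytes (0.08 ± 0.29, adjusted p = 0.82), and the groups overlapped. The alpha chain H2-Aa (0.13, adjusted p = 0.77) and the invariant chain Cd74 (0.22, adjusted p = 0.39) did not pass either, while the beta chain H2-Eb1 did (1.04 ± 0.38, adjusted p = 0.025) although 1 monocyte library at 372 CPM reached into the R1 range of 286 to 551. The chains depended on the libraries and the tool: without monocyte replicate 2, H2-Aa was higher in R1 (1.01, adjusted p = 0.0023), as it was with limma (0.78, adjusted p = 0.015), and H2-Eb1 stood at 1.89, while H2-Eb1 no longer passed without R1 replicate 2, monocyte replicate 1 or monocyte replicate 3 (adjusted p = 0.13, 0.14 and 0.15). The chaperone subunit H2-DMa fell in R1 (177, 229 and 153 against 367, 574 and 292 CPM, -1.14 ± 0.20, adjusted p = 5.6e-05), as did its partners H2-DMb1 (-0.96 ± 0.22) and H2-DMb2 (-2.31 ± 0.59, not passed with limma, adjusted p = 0.12), the master regulator Ciita (-1.20 ± 0.19) and the protease cathepsin S, Ctss (-0.81 ± 0.11). H2-Ob, a brake on the peptide exchanger, was higher in R1 (1.34 ± 0.31, adjusted p = 6.8e-04), and its partner H2-Oa did not pass (-1.74, adjusted p = 0.23), but was lower in R1 with DESeq2 (adjusted p = 0.041). All 11 members were lower in R1 than in naive R3 and in naive R2, where 12.5% and 3.88% of all genes were lower: H2-Ab1 averaged 12274 ± 1402 CPM in R3 (SD, n = 3). R1 was sorted as MHC-II-low and R2 and R3 as MHC-II-high, so the gate sets this direction for the class II chains.

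The 12 largest differences in favour of R1 were led by the surface receptors Lyve1, Cd207 and Vsig4. Lyve1, a hyaluronan receptor (gene ID 114332, chromosome 7, 110850607 to 110862953), measured 1460, 1296 and 1562 CPM in R1 and 0.579, 1.502 and 0.112 CPM in monocytes. Each R1 library lay far above the highest monocyte library, with a log2 fold change of 11.01 ± 0.55 (adjusted p = 9.3e-12). Cd207, the lectin langerin (gene ID 246278, chromosome 6, 83671207 to 83677857), measured 367, 144 and 258 CPM in R1, an uneven set, and 0.321, 0 and 0.112 CPM in monocytes (10.71 ± 0.65, adjusted p = 8.7e-12). Vsig4, a receptor for complement fragments (gene ID 278180, chromosome X, 96247201 to 96293438), measured 334, 212 and 322 CPM against 0.193, 0.341 and 0 CPM (10.70 ± 0.44, adjusted p = 1.2e-15). The folate receptor Folr2 (10.33 ± 0.54), the scavenger receptor Stab1 (10.15 ± 0.38), the Fc-receptor-like protein Fcrls (9.94 ± 0.26) and the endocytic adaptor Dab2 (9.84 ± 0.24) followed. Stab1 measured 5543, 5040.4 and 5194 CPM in R1 and Dab2 2676, 2637 and 2896 CPM, against single digits in every monocyte library. The other genes among the 12 largest were Gas6, described below, the calcium-binding protein Chp2 (9.86), the membrane protein Pmp22 (9.85), the actin-capping protein Tmod1 and the sarcoglycan Sgce. Tmod1 had 1 count in all monocytes together, an R1 to monocyte ratio of 1956 (351 to 77298), and Sgce had 2 counts, a ratio of 1586 (439 to 13102) (95% counting intervals, which leave out the spread between pools). Without monocyte replicate 2 the log2 fold change was 12.07 for Lyve1, 11.55 for Vsig4, 10.97 for Folr2, 10.69 for Gas6 and 10.47 for Chp2. Without monocyte replicate 3 it was 10.41 for Lyve1, 10.03 for Vsig4 and 9.70 for Folr2, and without monocyte replicate 1 it was 11.85 for Cd207 and 10.46 for Pmp22.

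The 12 largest differences in favour of the monocytes were led by Ly6c2, Met and Ly6a2. Ly6c2, which encodes the surface antigen Ly6C that marks classical monocytes (gene ID 100041546, chromosome 15, 75108161 to 75112066), measured 0.09898, 0.124 and 0 CPM in R1, which is 4 counts over all 3 libraries, and 821, 1027 and 741 CPM in monocytes (-13.30 ± 0.36, adjusted p = 1.5e-21). Its close relative Ly6a2 had 1 count in R1 and 181, 232 and 239 CPM in monocytes, a monocyte to R1 ratio of 11185 (2007 to 441810). Reads of the Ly6 genes may be split between near-identical copies, so the levels of single members are uncertain. Met, the receptor tyrosine kinase for hepatocyte growth factor (gene ID 17295, chromosome 6, 17463349 to 17573980), had 0 counts in R1 and 71.8, 56.1 and 93.04 CPM in monocytes, at least 1281-fold lower in R1 against a floor of 3 counts over the group. The junctional adhesion molecule Jaml had 0 counts as well, at least 566-fold lower in R1 than its 27.97, 33.1 and 37.6 CPM in monocytes. Cd177, a surface protein of neutrophils and monocytes, measured 913, 799 and 663 CPM in monocytes and at most 0.186 CPM in R1 (-12.88 ± 0.38). The chitinase-like protein Chil3 (-10.69 ± 0.48), the collagenase Mmp8 (-10.34 ± 0.40), haptoglobin, Hp (-9.40 ± 0.54), the phospholipase Plcb1 (-9.21 ± 0.46) and the proteoglycan versican, Vcan (-8.39 ± 0.48), stood with Ccr2 among the 12 largest. Leaving out R1 replicate 1 gave -10.38 for Hp, -9.03 for Vcan and -9.65 for Mmp8, leaving out R1 replicate 2 gave -10.77 for Plcb1 and -13.60 for Cd177, and leaving out R1 replicate 3 gave -11.91 for Mmp8.

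To show the DNA in front of these genes, the bases upstream of the start were read from RefSeq's promoter table for GRCm38.p6 for the 2 largest rises and the 2 largest falls that have an entry there (Lyve1 has none). Each is printed 5′ to 3′ on the gene's strand and ends at the base before the start. RefSeq's ranges for Ly6c2 and Met, which count predicted transcripts too, reach into or past the printed bases. Capitals mark matches, on either strand, to 1 of 8 short motifs.
Cd207 (chr6:83677858-83678107, minus strand): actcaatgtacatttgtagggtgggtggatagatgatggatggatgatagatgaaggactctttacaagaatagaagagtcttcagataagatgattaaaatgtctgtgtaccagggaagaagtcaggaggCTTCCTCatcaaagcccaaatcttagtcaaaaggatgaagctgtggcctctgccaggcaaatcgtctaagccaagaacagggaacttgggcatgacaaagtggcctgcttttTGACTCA
Vsig4 (chrX:96293439-96293688, minus strand): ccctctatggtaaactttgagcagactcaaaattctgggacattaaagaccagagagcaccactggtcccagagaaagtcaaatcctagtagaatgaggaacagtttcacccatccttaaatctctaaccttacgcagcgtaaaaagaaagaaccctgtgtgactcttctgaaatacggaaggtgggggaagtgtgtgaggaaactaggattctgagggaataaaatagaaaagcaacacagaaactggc
Ly6c2 (chr15:75111972-75112221, minus strand, first of 2 entries): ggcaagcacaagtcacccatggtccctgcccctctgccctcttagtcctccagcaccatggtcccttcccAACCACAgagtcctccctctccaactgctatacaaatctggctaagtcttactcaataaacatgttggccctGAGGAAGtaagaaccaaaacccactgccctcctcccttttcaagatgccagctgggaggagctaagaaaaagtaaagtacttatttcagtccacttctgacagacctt
Met (chr6:17463707-17463799, plus strand, printed up to the GENCODE start): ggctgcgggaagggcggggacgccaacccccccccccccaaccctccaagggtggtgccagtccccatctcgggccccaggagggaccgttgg
The motifs were GAGGAAG (bound by PU.1), TGCTGAC (a MAF half-site), TGANTCA (AP-1), TTGCNNAA (C/EBP), GGGTGTG (KLF), TGTGGTT (RUNX), CTANNNNTAG (MEF2) and the IRF pair of GAAA blocks set 2 bases apart, searched in the 250 bases before each start. Cd207 held a PU.1 match starting 119 bases and an AP-1 match starting 7 bases before its start. Ly6c2 held a PU.1 match 108 bases and a RUNX match 180 bases before its start. Met held an AP-1 match 54 bases before its RefSeq start, in bases that GENCODE counts as transcribed and that are not printed, and Vsig4 held none of the 8. The PU.1 letters occurred in 10.6% of all 32851 promoters of this length, in 11.2% of the 12978 belonging to genes tested, in 10.6% of the 775 belonging to genes at least 16-fold higher in R1 and in 17.2% of the 296 belonging to genes at least 16-fold lower. For AP-1 the same 4 shares were 6.75%, 4.58%, 6.32% and 8.45%, and for C/EBP 9.56%, 7.77%, 11.1% and 13.9%. For RUNX they were 4.4%, 3.24%, 3.74% and 7.09%, for IRF 2.98%, 2.85%, 2.32% and 6.08% and for KLF 6.93%, 7.09%, 7.61% and 10.5%. For the MAF half-site they were 3.81%, 3.12%, 4% and 4.05%, and for MEF2 3.2%, 2.77%, 3.61% and 3.04%. These are descriptions of letters in a window and were not tested.

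The marker lists ran in the direction of the labels. They were chosen with earlier results of these data known, and the classical list holds Ccr2, whose direction the sort sets. Their counts are therefore descriptions and no independent check of the labels. All 22 resident heart macrophage markers were higher in R1 (background 32.5%), with a median log2 fold change of 8.16, or 8.03 with the 1 gene that had no monocyte count at its bound, and their summed level was 41015 to 46785 CPM in R1 and 4029.6 to 4714 CPM in monocytes. Mertk, the kinase receptor that recognises dying cells, measured 140.3, 128 and 131 CPM in R1 and 1.16, 0.682 and 0.729 CPM in monocytes (7.27 ± 0.21, adjusted p = 8.9e-18). Platelet factor 4, Pf4, a chemokine that macrophages also make, measured 873, 932 and 842 against 2.76, 0.614 and 0.224 CPM (9.55 ± 0.34, and 11.06 without monocyte replicate 1). The smallest rise was that of Fcgr1, the high-affinity IgG receptor (0.99 ± 0.11). Of 19 classical monocyte markers, 18 were lower in R1 (background 30.8%) and 1 was higher, with a median of -7.15. The exception, the coagulation factor F13a1, stands in both lists and measured 5508, 5735 and 6969 CPM in R1 and 2977, 2807 and 2783 CPM in monocytes (1.09 ± 0.20, adjusted p = 7.6e-05). It made up most of the classical list's sum in R1 (5837.5 to 7290.9 CPM) and most of the resident list's sum in monocytes. Glutathione reductase, Gsr, fell by 4.64 ± 0.22 and the fungal lectin receptor Clec4e by 5.34 ± 0.26. Of 15 nonclassical monocyte markers, 11 were lower in R1 (73.3%, against 30.8% of all genes) and 4 higher (26.7%, against 32.5%). Nr4a1, given below with the immediate early genes, is 1 of the 15. It held 2825, 892 and 1584 CPM of the list's sums of 7510, 4509 and 7816 CPM in the 3 monocyte libraries. The sialophorin Spn fell by 2.45 ± 0.19 and the adhesion receptor Adgre4 by 2.35 ± 0.20. The lipid scavenger Cd36 went against the list, at 1138, 1240.2 and 1391 CPM in R1 and 36.9, 37.4 and 37.6 CPM in monocytes (5.07 ± 0.15), as did the tetraspanin Cd9 (3.17 ± 0.14) and the phosphatase Dusp16 (2.98 ± 0.22). In bulk RNA, fewer cells of a type and less RNA per cell cannot be told apart, so these lists do not say what share of the sorted spleen cells was classical or nonclassical.

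**Figure D2:**
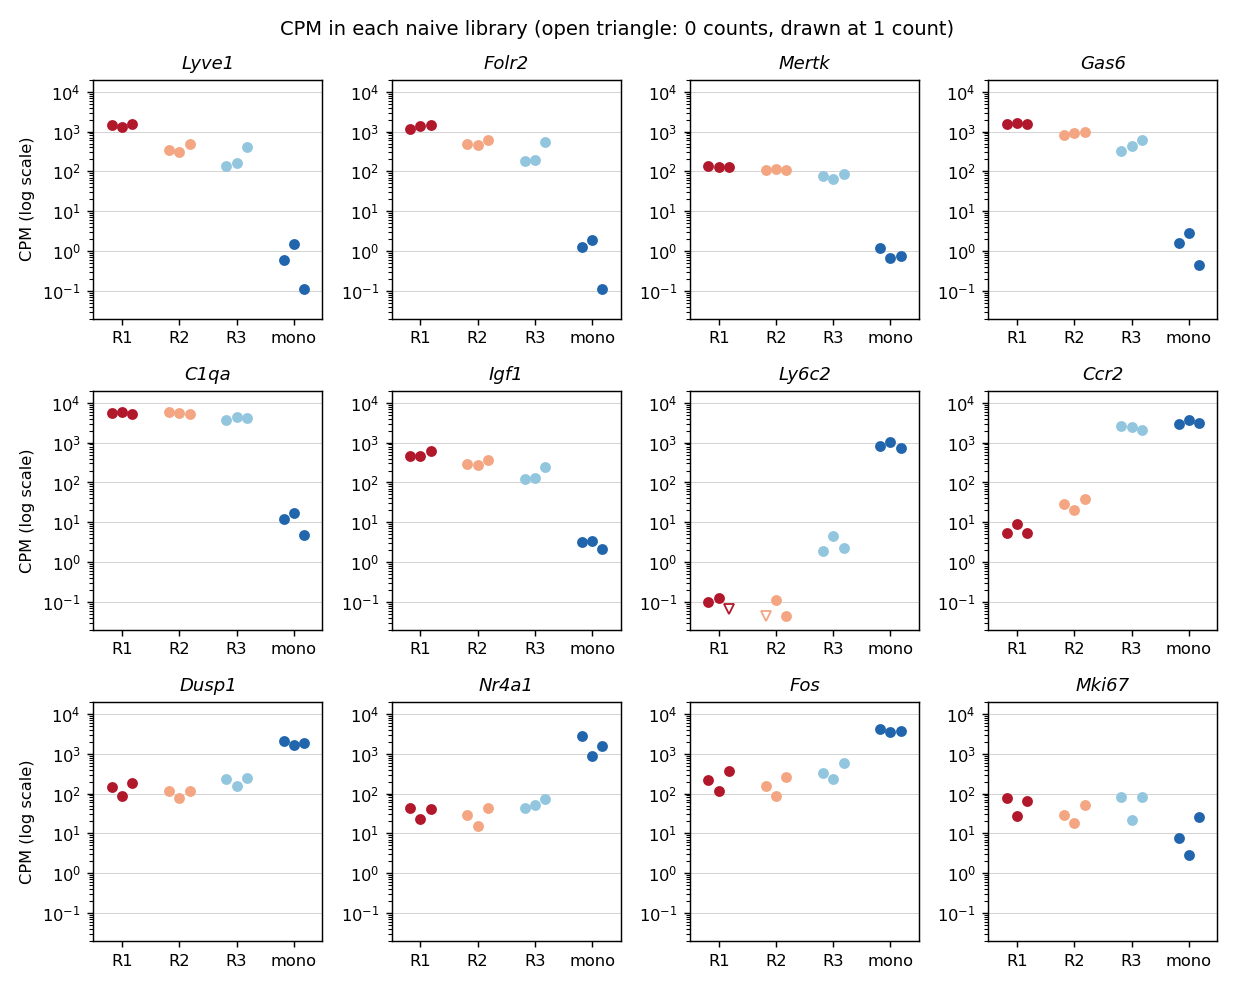
CPM of 12 genes in each naive library on a log axis, with 3 points each for R1, R2, R3 and the splenic monocytes (mono); an open triangle stands for 0 counts and is drawn at the level of 1 count. The resident and C1q genes are high in all 3 heart populations and lowest in the monocytes, Ccr2 is high in R3 and the monocytes, and Ly6c2, Dusp1, Nr4a1 and Fos are highest in the monocytes.

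Receptors and bridging proteins for uptake were mostly higher in R1. Among 23 that serve dying cells, 16 were higher in R1 (69.6%, against 32.5% of all genes) and 5 lower (21.7%, against 30.8%), with a median of 1.96. Gas6, the ligand that links dying cells to Mertk, measured 1509.7, 1658 and 1585 CPM in R1 and 1.54, 2.798 and 0.448 CPM in monocytes (10.01 ± 0.31, adjusted p = 2.9e-16), so that the receptor and its bridge rose together. Exceptions were the integrin chain Itgb3 (-5.37 ± 0.28) and the lipid-sensing inhibitory receptors Cd300a (-2.24 ± 0.15) and Cd300lf (-4.38 ± 0.44, and -5.40 without R1 replicate 2), all higher in monocytes. Among 29 scavenger and lectin receptors, 16 were higher (55.2%) and 8 lower (27.6%, near the background). The haemoglobin receptor Cd163 measured 2722, 2573 and 2781 CPM in R1 and 13.1, 12.7 and 6.95 CPM in monocytes (7.96 ± 0.26). The galactose lectin Mgl2 (8.94 ± 0.35) and the endosomal protease legumain, Lgmn (2.96 ± 0.11), rose too. The HDL receptor Scarb1 was lower in R1, at 80.8, 75.1 and 82.2 CPM against 538, 642 and 535 CPM (-2.85 ± 0.12), with the beta-glucan receptor Clec7a (-1.53 ± 0.13) and the inhibitory lectin Clec4a3 (-1.36 ± 0.13). Lrp1, a large endocytic receptor, did not pass (-0.18 ± 0.27, adjusted p = 0.58); its monocyte libraries read 1690.3, 612 and 1733 CPM, with the low value in replicate 2, and without that library it was lower in R1 (-0.52, adjusted p = 0.015).

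Complement genes were mostly higher in R1, but C3 was not. Of 23 tested, 15 were higher in R1 (65.2%, against 32.5% of all genes) and 5 lower (21.7%, against 30.8%), with a median of 4.29. The 3 chains of C1q, which starts the classical pathway and also coats dying cells, were among the most abundant: C1qa measured 5404, 5776 and 5355 CPM in R1 and 11.8, 16.9 and 4.82 CPM in monocytes (8.97 ± 0.26), C1qb rose by 8.39 ± 0.16 and C1qc by 8.80 ± 0.21. The receptor for the fragment C3a, C3ar1, measured 721, 911 and 829 against 5.91, 5.73 and 3.98 CPM (7.31 ± 0.17, adjusted p = 2.3e-19). The central component C3 ran the opposite way, at 28.7, 29.4 and 19.2 CPM in R1 and 1758, 1079 and 1831 CPM in monocytes (-5.91 ± 0.36, adjusted p = 1.2e-10). The lectin pathway initiator Fcnb had 0 counts in R1, at least 88.6-fold lower than the monocytes, and the complement receptor chain Itgam was lower in R1 by a smaller step (-0.78 ± 0.13).

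The receptors for IgG were shared between the cell types. Of 7 tested in the list of IgG Fc receptors with their signalling chain, 5 were higher in R1 (71.4%) and 1 lower (14.3%), or 2 lower without monocyte replicate 2. The neonatal Fc receptor Fcgrt, which recycles IgG and albumin, showed the widest gap, at 1239.6, 1272 and 1412 CPM in R1 and 86.99, 102 and 65.8 CPM in monocytes (3.95 ± 0.15, adjusted p = 9.6e-16). The inhibitory receptor Fcgr2b (1.11 ± 0.11), the activating receptors Fcgr3 (0.85 ± 0.15) and Fcgr4 (1.07 ± 0.29) and Fcgr1 rose by about 1 log2 unit each. Their common signalling chain Fcer1g was lower in R1 (609, 677 and 580 against 913, 1449.9 and 825 CPM, -0.77 ± 0.15), and the kinase Syk downstream did not pass (-0.42 ± 0.20, adjusted p = 0.076), but was lower in R1 without monocyte replicate 2 (-0.70, adjusted p = 1.9e-06), with limma (1.1e-04) and with DESeq2 (0.050).

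The iron exporter and its partners were higher in R1. Of 24 iron and haem genes tested, 14 were higher in R1 (58.3%, against 32.5% of all genes) and 3 lower (12.5%, against 30.8%). Slc40a1, the iron exporter ferroportin, measured 555, 532 and 613 CPM in R1 and 8.94, 24.1 and 11.3 CPM in monocytes (5.28 ± 0.37, adjusted p = 8.1e-10). Ceruloplasmin, Cp, the oxidase that works beside the exporter, measured 212, 209 and 228 against 0.386, 0.819 and 0.224 CPM (8.86 ± 0.35, and 9.48 without monocyte replicate 2), and transferrin, Trf, the plasma iron carrier, 4470, 4291 and 4241 against 543, 746 and 554 CPM (2.82 ± 0.14). Ncoa4, which delivers ferritin for breakdown, rose by 1.83 ± 0.15. Haptoglobin, which captures free haemoglobin for Cd163, stood at 2.38, 0.559 and 0.801 CPM in R1 and 805, 1012 and 903 CPM in monocytes, so that the ligand was a monocyte transcript and its receptor an R1 transcript. The haem exporter Flvcr1 (-2.10 ± 0.12) and the haem-sensing repressor Bach1 (-0.95 ± 0.14) were lower in R1. Haem oxygenase, Hmox1, did not pass (206, 227 and 213 and 170.1, 213 and 217 CPM, adjusted p = 0.42), nor did ferritin light chain, Ftl1 (adjusted p = 0.49), although Ftl1 was higher in R1 without monocyte replicate 2 (0.45, adjusted p = 0.0073) and with limma (adjusted p = 0.0077).

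Of 29 lipid genes, 11 were higher in R1 (37.9%, against 32.5% of all genes) and 15 lower (51.7%, against 30.8%). Apoe, a carrier of cholesterol out of cells and the most abundant R1 transcript by counts, measured 23793, 25068 and 23429 CPM in R1 and 2666, 3882 and 2301 CPM in monocytes (3.03 ± 0.19, adjusted p = 1.3e-11). The cholesterol exporter Abca1 measured 792, 777 and 773 against 20.1, 9.35 and 13.96 CPM (5.75 ± 0.28) and the phospholipid transfer protein Pltp 1668, 1895 and 1979.6 against 108, 104 and 102 CPM (4.14 ± 0.12). On the monocyte side stood Soat1, which esterifies cholesterol for storage (-1.86 ± 0.11), and the desaturase Scd2 (-3.78 ± 0.24). Of 40 lysosomal genes, 21 were higher in R1 (52.5%) and 8 lower (20%). The summed level of the list was close in both, at 40539 to 42670 CPM in R1 and 38435 to 40535 CPM in monocytes. Cathepsin L, Ctsl (2.64 ± 0.14), the peptidase Tpp1 (1.97 ± 0.09) and the proton pump subunit Atp6v0a1 (2.36 ± 0.12) rose. Prosaposin, Psap, the precursor of sphingolipid activators, was lower in R1 at 5605, 5789 and 4947 CPM against 15361, 14195 and 16995 CPM (-1.51 ± 0.09), with the cholesterol-binding protein Npc2 (-1.50 ± 0.12) and the pump subunit Atp6v1b2 (-1.54 ± 0.08). The membrane protein Lamp1, a common lysosome marker, did not pass (0.16 ± 0.08, adjusted p = 0.090, and 0.049 without monocyte replicate 2).

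Secreted factors separated the cell types gene by gene. Of 36 growth factors and matrix-acting proteins, 17 were higher in R1 (47.2%, against 32.5%) and 10 lower (27.8%, against 30.8%). Insulin-like growth factor, Igf1, a survival factor for heart muscle, measured 449.9, 476 and 618 CPM in R1 and 3.15, 3.41 and 2.19 CPM in monocytes (7.48 ± 0.28, adjusted p = 5.1e-15). The morphogen Bmp2 measured 34.1, 48.5 and 43.9 CPM in R1 and had 3 counts over the monocyte libraries, a ratio of 665 (227 to 3226). The matricellular protein Ccn1 had 23.2, 15.5 and 18.9 CPM in R1 and 0 counts in the monocytes, at least 313-fold higher. The protease inhibitor Timp2 (1475, 1722 and 1835 against 115, 119 and 101 CPM, 3.91 ± 0.12) and the TGF-beta receptor Tgfbr2 (2.77 ± 0.11) rose as well. Heparanase, Hpse, which cuts heparan sulphate and helps cells through basement membranes, measured 9.601, 10.1 and 14.2 CPM in R1 and 424, 481 and 487 CPM in monocytes (-5.37 ± 0.18), and Mmp8 and Vcan, given above, were monocyte genes too. TGF-beta itself, Tgfb1, was lower in R1 (316, 335 and 336 against 1185, 828 and 1007 CPM, -1.61 ± 0.11), opposite to its receptor chain. Hepatocyte growth factor, Hgf, the ligand of Met, did not pass and measured 18.5, 19.3 and 16.1 and 21.4, 17.2 and 17.9 CPM (adjusted p = 0.75).

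Of 23 chemokines, 11 were higher in R1 (47.8%, against 32.5% of all genes) and 6 lower (26.1%, against 30.8%). The Ccr2 ligands Ccl7 (32.6, 48.9 and 32.2 against 0.129, 0 and 0.168 CPM, 8.41 ± 0.47) and Ccl12 (48.5, 55.6 and 29.3 against 0.257, 0.0682 and 0.05605 CPM, 8.40 ± 0.42, and 9.32 without monocyte replicate 1) were R1 transcripts, while their receptor was a monocyte transcript. Ccl24, which draws eosinophils, measured 243, 273 and 252 against 0.707, 1.502 and 0.448 CPM (8.21 ± 0.54, and 8.81 without monocyte replicate 2). The membrane chemokine Cxcl16 (4.07 ± 0.12) and Cxcl14 (16.5, 14.03 and 10.95 CPM in R1 and 2 counts over the monocytes, a ratio of 339 (93.5 to 2806)) rose too. The interferon-inducible Cxcl9 (-2.83 ± 0.24) and Cxcl10 (10.3, 4.47 and 3.07 against 76.4, 63.1 and 43.04 CPM, -3.29 ± 0.32, and -4.01 without R1 replicate 1) and the inflammatory Ccl3 (-2.59 ± 0.36, and -1.93 without monocyte replicate 1) were lower in R1. Ccl4 did not pass (-0.75, adjusted p = 0.074) and was lower in R1 without monocyte replicate 3 (-1.21, adjusted p = 1.9e-04) and with DESeq2 (adjusted p = 0.038).

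Receptors for chemoattractants split between the cell types. Of 23, 10 were higher in R1 and 9 lower, close to the background shares. S1pr1, the receptor by which cells sense sphingosine phosphate and leave tissue, measured 152, 204 and 186 CPM in R1 and 0.772, 1.502 and 0.897 CPM in monocytes (7.43 ± 0.23), while its relative S1pr4 measured 1.24, 0.559 and 1.54 CPM in R1 and 22.1, 21.3 and 24.9 CPM in monocytes (-4.35 ± 0.36). The anaphylatoxin receptor C5ar1 measured 558, 736 and 607 against 33.4, 17.5 and 45.5 CPM (4.29 ± 0.21). The formyl peptide receptor Fpr2 was lower in R1 (-2.28 ± 0.17).

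Adhesion and movement genes belonged mostly to the monocytes. Of 26 rolling and adhesion receptors, 9 were higher in R1, a share close to the background, and 16 lower (61.5%, against 30.8% of all genes). Of 32 genes of the actin cytoskeleton and its control, 4 were higher (12.5%, against 32.5%) and 26 lower (81.25%, against 30.8%). The medians were -1.38 and -0.86. The actin-binding protein Coro1a measured 652, 701 and 631 CPM in R1 and 3680.4, 4576 and 3610.4 CPM in monocytes (-2.58 ± 0.13, adjusted p = 1.1e-13). The Src-family kinase Fgr measured 17.02, 12.6 and 8.95 against 872, 912 and 1020.4 CPM (-6.16 ± 0.31). Vimentin, Vim (-2.26 ± 0.13), the motor protein Myo1g (-2.55 ± 0.13) and the actin-sequestering peptide Tmsb10 (-6.14 ± 0.31) were lower in R1 as well. Those higher in R1 included the bundling protein Lcp1 (0.62 ± 0.11) and the exchange factors Fgd2 (1.03 ± 0.09) and Vav3 (0.40 ± 0.13, not passed without monocyte replicate 2, adjusted p = 0.061); without that library 2 of the 32 were higher in R1. Among the adhesion receptors, R1 held more of the integrin chains Itga9 (275, 271 and 235 against 1.41, 1.84 and 0.841 CPM, 7.6 ± 0.19) and Itga6 (5.88 ± 0.19) and of the tetraspanins Cd81 (902, 1098 and 916 against 6.82, 10.8 and 7.34 CPM, 6.88 ± 0.15) and Cd63 (7.36 ± 0.22). The motor protein Myh9 did not pass, with monocyte libraries at 1292, 446 and 1276 CPM (-0.19 ± 0.27, adjusted p = 0.56), and was lower in R1 without replicate 2 (-0.53, adjusted p = 0.0062). Tmsb4x, whose sequence is shared with near-identical copies, read under 1 CPM in every library, so its level is uncertain.

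**Figure D3:**
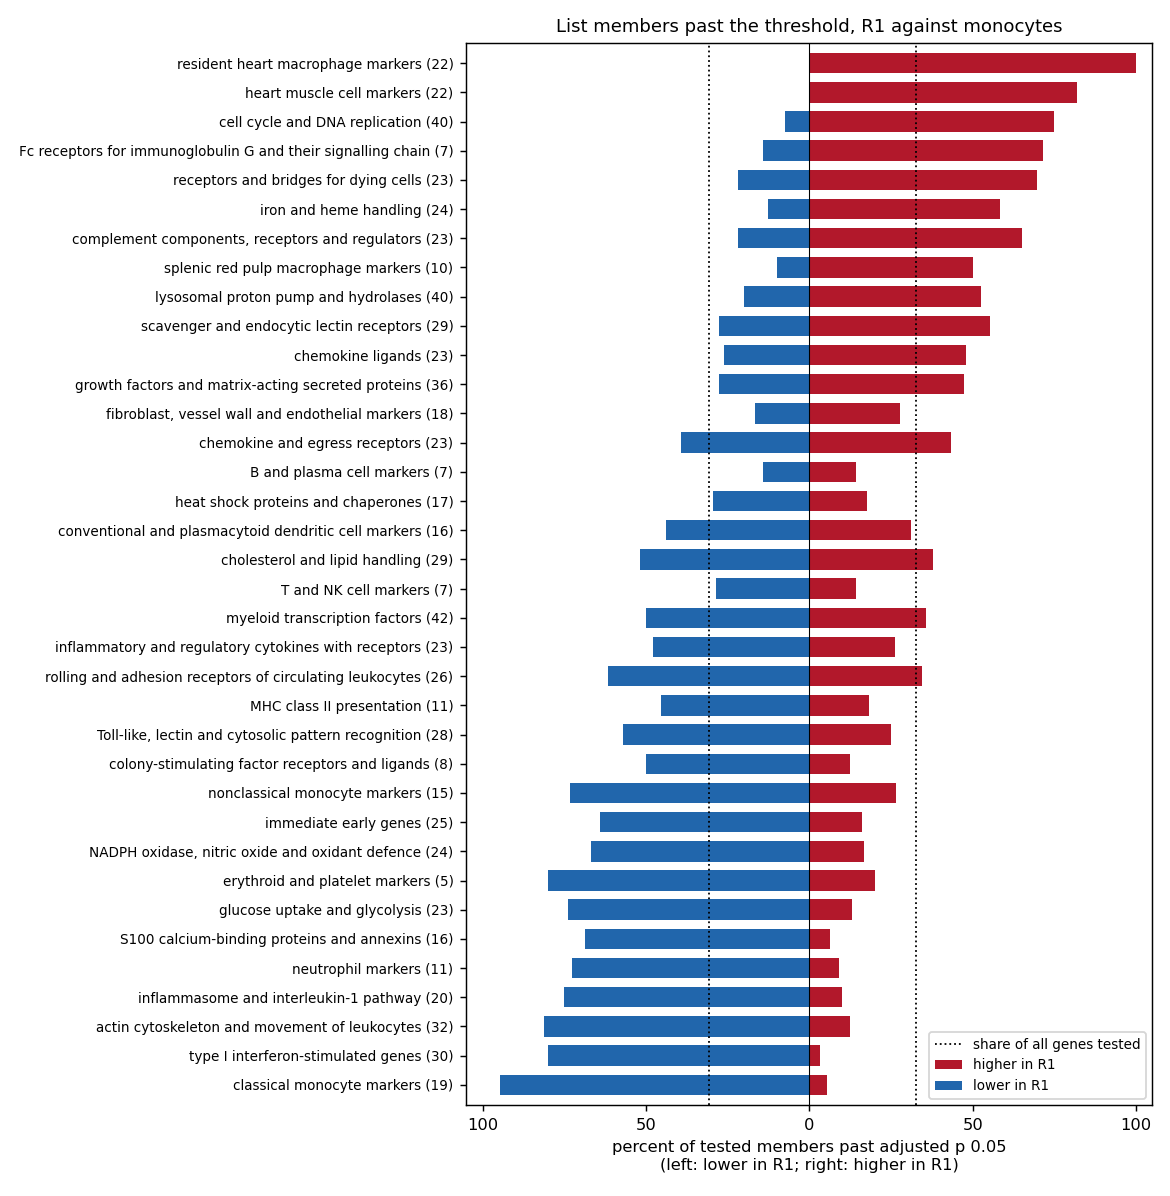
For each of the 36 gene lists, the percent of tested members (number in brackets) that passed higher in R1 (red, right) or lower in R1 (blue, left), ordered by the difference; dotted lines mark the shares over all 13275 genes tested, 32.5% higher and 30.8% lower. Resident macrophage markers stand at 100% higher, and classical monocyte, interferon-stimulated and cytoskeletal genes lie at the lower end.

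Of 42 transcription factors, 15 were higher in R1 (35.7%, against 32.5% of all genes) and 21 lower (50%, against 30.8%), with a median of -0.45. Maf, a factor of resident macrophages, measured 1102, 1115 and 1151 CPM in R1 and 49.95, 18.4 and 72.1 CPM in monocytes (4.57 ± 0.29, adjusted p = 1.4e-10). Mef2c (392, 428 and 423 against 134, 80.8 and 107 CPM, 1.95 ± 0.13) and the lysosome regulator Mitf (1.99 ± 0.15) rose, while Tfeb, of the same family as Mitf, fell (48.3, 54.8 and 58.5 against 144, 126 and 147 CPM, -1.37 ± 0.13). Irf5, which drives inflammatory cytokine genes, measured 209.9, 239 and 209 CPM in R1 and 861, 732 and 790 CPM in monocytes (-1.86 ± 0.09). Nfe2, a factor of marrow and platelet lineages, measured 2.87, 0.745 and 1.603 against 196, 202 and 195 CPM (-6.76 ± 0.49, and -7.41 without R1 replicate 1). Cebpb, a factor of inflammatory and nonclassical monocytes that was chosen for mention after its values were seen, varied between the monocyte pools, at 2130.4, 712 and 1005 CPM, and measured 185, 113 and 159 CPM in R1 (-3.08 ± 0.29).

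The receptors for colony-stimulating factors went in opposite directions. Csf1r alone of 8 tested was higher in R1 (12.5%, against 32.5% of all genes), 4 were lower (50%, against 30.8%) and 3 did not pass. Csf3r, the G-CSF receptor, measured 45.4, 43.5 and 43.7 CPM in R1 and 408, 309.9 and 429.8 CPM in monocytes (-3.11 ± 0.12, adjusted p = 1.4e-15). Flt3, a receptor of progenitors and dendritic cells, measured 0.693, 0.559 and 0.467 against 74.97, 71.7 and 49.99 CPM (-6.79 ± 0.61), and the chains of the GM-CSF receptor, Csf2ra (-0.95 ± 0.14) and Csf2rb (-1.61 ± 0.15), were lower in R1 too.

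Genes of pathogen sensing and inflammation were higher in monocytes in most lists, with named exceptions. Of 20 inflammasome and interleukin-1 genes, 15 were lower in R1 (75%, against 30.8% of all genes) and 2 higher (10%, against 32.5%). Pyrin, Mefv, measured 0.643, 0 and 0.134 CPM in R1 and 78.1, 49.4 and 92.1 CPM in monocytes (-7.94 ± 0.40, adjusted p = 2.6e-15, and -10.00 without R1 replicate 1), and the pore-forming protein Gsdmd fell by 1.68 ± 0.13. The sensors of bacterial proteins were split, with Naip5 (-1.91 ± 0.15) and Naip2 (-1.74 ± 0.14) lower in R1 and their partner Nlrc4 higher (44.5, 40.3 and 29.9 against 24.4, 19.5 and 27.01 CPM, 0.69 ± 0.15). Of 28 pattern recognition genes, 16 were lower (57.1%) and 7 higher (25%). The adaptor Myd88 fell by 1.61 ± 0.11, while the endotoxin receptor Tlr4 rose (216, 227 and 228 against 30.3, 27.6 and 40.4 CPM, 2.77 ± 0.15), with Tlr5 (2.45 ± 0.19) and dectin-2, Clec4n (3.14 ± 0.17). Of 23 cytokine and cytokine receptor genes, 11 were lower (47.8%) and 6 higher (26.1%). The interleukin-17 receptor Il17ra measured 65.3, 61.5 and 51.8 against 784, 632 and 751 CPM (-3.60 ± 0.16) and the TNF receptor Tnfrsf1b fell by 1.93 ± 0.13, while the interleukin-10 receptor chain Il10rb (1.58 ± 0.10) and the interleukin-4 receptor Il4ra (1.05 ± 0.13) rose.

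The type I interferon-stimulated list was among the most one-sided, with 24 of 30 lower in R1 (80%, against 30.8% of all genes) and 1 higher (3.33%, against 32.5%). The median was -1.46, with summed levels of 1866 to 2724 CPM in R1 and 5818 to 6301 CPM in monocytes. The antiviral membrane protein Ifitm3 measured 433, 328 and 350 CPM in R1 and 1589.8, 1792 and 1413 CPM in monocytes (-2.11 ± 0.15, adjusted p = 5.1e-11) and the nucleic acid sensor Zbp1 48.8, 26.6 and 33.1 against 179, 150.5 and 156 CPM (-2.15 ± 0.24). The DNA-binding proteins Ifi205 (-4.55 ± 0.22) and Ifi204 (-1.34 ± 0.15) and the nuclease Isg20 (-2.57 ± 0.23) were lower in R1 as well. R1 replicate 1 held the most of Zbp1, Ifi204 and Ifitm3 among the R1 libraries and still lay below every monocyte library. The exception was Oas2, a sensor of double-stranded RNA (55.4, 33.8 and 37.5 against 22.6, 8.46 and 24.7 CPM, 1.18 ± 0.32, adjusted p = 0.0038), and the other 5 did not pass.

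The metabolic and oxidant lists also leaned to the monocytes. Of 23 genes of glucose uptake and glycolysis, 17 were lower in R1 and 3 higher, with a median of -0.88. Pyruvate kinase, Pkm, measured 316, 316 and 324 CPM in R1 and 1149.7, 1215 and 1109 CPM in monocytes (-1.86 ± 0.09, adjusted p = 1.8e-14). The isomerase Gpi1 (-1.35 ± 0.10), aldolase, Aldoa (-1.33 ± 0.10), and the lactate exporter Slc16a3 (-2.64 ± 0.19) were lower too. The glucose transporters differed by member, Slc2a3 being higher in R1 (21.5, 25.6 and 23.3 against 4.56, 4.03 and 4.76 CPM, 2.39 ± 0.19) and Slc2a6 lower (10.3, 7.82 and 10.02 against 131, 128 and 135 CPM, -3.80 ± 0.28). Of 24 oxidase and oxidant defence genes, 16 were lower in R1 (66.7%) and 4 higher (16.7%). The NADPH oxidase subunits Ncf4 (-1.65 ± 0.10) and Rac2 (-1.57 ± 0.10) and the peroxidase Prdx5 (-2.90 ± 0.15) fell, and Txnip, the thioredoxin inhibitor, rose (2279.7, 2645 and 2247 against 552, 753 and 600.2 CPM, 1.91 ± 0.10). Of 16 S100 proteins and annexins, 11 were lower (68.75%) and 1 higher (6.25%). Anxa2 (180.1, 199 and 183 against 1458, 1777 and 1310 CPM), Anxa1 and S100a6 fell by 3.02 ± 0.12, 2.85 ± 0.12 and 3.98 ± 0.25, while Anxa3 rose (1.22 ± 0.18). Without monocyte replicate 2, 3 of the 16 were higher in R1.

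Cell cycle genes were mostly higher in R1. Of 40 tested, 30 were higher (75%, against 32.5% of all genes) and 3 lower (7.5%, against 30.8%), with a median of 1.82. The D-type cyclins, which carry growth factor signals into the cycle, differed by member. Ccnd1 measured 319, 292 and 313 CPM in R1 and 4.50, 4.64 and 4.65 CPM in monocytes (6.06 ± 0.19, adjusted p = 3.6e-17), Ccnd2 85.9, 64.9 and 72.7 against 1.09, 2.25 and 1.74 CPM (5.46 ± 0.24), and Ccnd3 66.8, 69.7 and 72.7 against 406, 375 and 392 CPM (-2.49 ± 0.13). On levels per gene length (RPKM, which is CPM divided by the length in kilobases), Ccnd1 at 81.1 ± 3.71 stood above Ccnd3 at 30.8 ± 1.29 in R1, and Ccnd3 at 173 ± 6.87 above Ccnd1 at 1.21 ± 0.0222 in monocytes (SD, n = 3). The replication helicase genes Mcm6 (100, 69.8 and 90.5 against 12.6, 18.3 and 17.04 CPM, 2.44 ± 0.14) and Mcm3 (1.57 ± 0.13) and the nucleotide reductase Rrm1 (1.89 ± 0.16) rose. The proliferation antigen Mki67, chosen for mention after its values were seen, was uneven within both groups, at 78.3, 27.6 and 63.97 CPM in R1 and 7.84, 2.798 and 25.9 CPM in monocytes (2.18 ± 0.72, adjusted p = 0.015). It no longer passed without R1 replicate 1, monocyte replicate 1 or monocyte replicate 2 (adjusted p = 0.053, 0.059 and 0.065), and stood at 3.38 without monocyte replicate 3. The replication clamp Pcna did not pass (adjusted p = 0.60) and was higher in R1 without monocyte replicate 2 (0.31, adjusted p = 0.019) and with limma (adjusted p = 0.042).

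Immediate early genes, which switch on within minutes of a stimulus and also during cell isolation, ran strongly the other way. Of 25 tested, 16 were lower in R1 (64%, against 30.8% of all genes) and 4 higher (16%, against 32.5%). Their summed level was 2903 to 4086 CPM in R1 and 13635 to 22871 CPM in monocytes. The phosphatase Dusp1 measured 147, 85.9 and 184 CPM in R1 and 2053, 1681 and 1829 CPM in monocytes (-3.74 ± 0.25, adjusted p = 1.7e-10) and the mRNA decay factor Zfp36 170.2, 129.9 and 225 against 3165, 1528 and 1907 CPM (-3.65 ± 0.27). Fos (215, 118 and 359 against 4222, 3507 and 3808 CPM, -4.06 ± 0.50) and Nr4a1, which nonclassical monocytes require (42.8, 23.7 and 41.7 against 2825, 892 and 1584 CPM, -5.61 ± 0.59), were chosen for mention after their values were seen. The transcription factor Atf3 (-3.83 ± 0.32, and -3.22 without monocyte replicate 1) and the immediate early response genes Ier2 (-1.82 ± 0.19) and Ier5 (-1.41 ± 0.12) fell too, and for most of these genes monocyte replicate 1 was the highest library. Against the list, the transcription factors Egr2 (11.7, 13.1 and 8.21 against 2.19, 1.09 and 1.35 CPM, 2.84 ± 0.33) and Myc (2.43 ± 0.34) were higher in R1 with Ccn1. Of 17 heat shock genes, 3 were higher (17.6%) and 5 lower (29.4%, near the background), or 3 lower without R1 replicate 3 or monocyte replicate 3. The inducible chaperone Hspa1a did not pass and was uneven in both groups (78.5, 28.0 and 124 and 276, 48.05 and 253 CPM, adjusted p = 0.10, 0.027 without monocyte replicate 2 and 0.021 with limma), while the constitutive chaperone Hspa8 was lower in R1 (-1.38 ± 0.16). The part that dissociation of heart or spleen has in these levels cannot be told apart from the cell types.

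R1 also differed from the other heart populations. With the same monocytes for all, the difference of effects equals R1 against R3 or R2 directly. Libraries that can share a pool are treated as independent here. Against monocytes, 8440 genes passed for R2 and 7825 for R3, beside 8401 for R1. The summed level of the list for dying cells was 25719 to 26398 CPM in R1 and 22825 to 24885 CPM in R2. It was 16905 to 18943 CPM in R3 and 2395 to 3555 CPM in monocytes. Such differences from monocytes are not particular to R1. Of the 13275 genes, 1414 were higher in R1 than in R3 (10.7%) and 1659 lower (12.5%), and 431 were higher in R1 than in R2 (3.25%) and 515 lower (3.88%). In all, 23.1% of genes differed from R3 and 7.13% from R2. The 946 genes that differed from R2 became 595 without R1 replicate 3, 588 without R2 replicate 1 and 602 without R2 replicate 2. Of the 22 resident markers, 17 were higher in R1 than in R3 and 12 higher than in R2. Lyve1 averaged 236 ± 148 CPM in R3 and 380.4 ± 88.8 CPM in R2 (SD, n = 3), so that R1 exceeded them by 2.61 ± 0.32 and 1.92 ± 0.31 log2 units (adjusted p = 1.1e-05 and 6.6e-04). Without R3 replicate 3, which held the most Lyve1 in R3, the difference from R3 was 3.26. Vsig4 averaged 50.1 ± 9.59 and 53.5 ± 15.2 CPM (2.53 ± 0.22 and 2.43 ± 0.22). Of the 19 classical monocyte markers, 11 were lower in R1 than in R3 and 2 lower than in R2. Of 23 glycolysis genes, 13 were lower in R1 than in R3 and 3 lower than in R2. Of 30 interferon-stimulated genes, 2 were lower in R1 than in R3 and 0 lower than in R2. Of 25 immediate early genes, 6 were lower in R1 than in R3 and 3 lower than in R2. Of 40 cell cycle genes, 0 were higher in R1 than in R3 and 2 higher than in R2, with 8 and 1 lower.

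Markers of other cells were read as measured facts beside these results. Over all genes, 32.5% were higher in R1 and 30.8% lower, the background for each share given here. Of 22 heart muscle cell markers, 18 were higher in R1 (81.8%) and 0 lower. Of all 22, 9 had no count in the monocytes, and the median was 6.33, or 4.85 with those genes at their bound. Their summed level was 266 to 299 CPM in R1 and 156 to 232 CPM in monocytes, and the myosin and troponin genes Myh6, Tnnt2, Tnnc1 and Myl3 were among those with no monocyte count. Single genes were low: myoglobin, Mb, measured 17.6, 18.2 and 15.2 CPM in R1 and 0.0643, 0.137 and 0.05605 CPM in monocytes (7.55 ± 0.42) and the light chain Myl2 12.2, 11.4 and 10.2 CPM in R1. Naive R3 held more of both, at 37.2 ± 0.306 and 23.7 ± 2.95 CPM (SD, n = 3). Of the 22, 9 were lower in R1 than in R3, where 12.5% of all genes were lower. The calcium pump Atp2a2, which many cells express, made up most of the list's sum and did not pass (adjusted p = 0.90). Of 18 fibroblast and vessel markers, 5 were higher (27.8%) and 3 lower (16.7%), both under the background. The collagen chain Col3a1 measured 7.72, 3.41 and 2.003 CPM in R1 and 0.129, 0.137 and 0.05605 CPM in monocytes (5.37 ± 1.22, and 4.61 without R1 replicate 1). Of 5 tested red cell and platelet markers, 1 was higher in R1 (20%) and 4 lower (80%). Summed levels were 11.1 to 16.5 CPM in R1 and 19.2 to 75.7 CPM in monocytes. In the monocytes, haemoglobin RNA was present and uneven, Hba-a1 measuring 2.44, 22.6 and 9.02 CPM there and 0 counts in R1. Of 11 neutrophil markers tested, 1 was higher (9.09%) and 8 lower (72.7%). Summed levels were 229 to 349.8 CPM in R1 and 623 to 789.8 CPM in monocytes. Csf3r and Mmp8, given above, made up most of the monocyte sum but the smaller part of the R1 sum, whose other members are not named here. Ly6g and Elane had no count in R1. The neutrophil genes S100a8 (2.89, 11.4 and 23.3 CPM in monocytes, -6.47 ± 0.72, -7.48 without R1 replicate 1 and -5.66 without monocyte replicate 3) and Ltf (0.193, 2.87 and 16.4 CPM) were likewise uneven, lowest in replicate 1. Of 7 B cell markers tested, 1 was higher and 1 lower (14.3% each, under the background). Without monocyte replicate 2, 0 were lower, and without monocyte replicate 3, 0 were higher. The summed level of the B cell list was 574 to 611 CPM in R1 and 333 to 551 CPM in monocytes, and the genes behind it are not named here. Of 7 T and NK cell markers tested, 1 was higher in R1 (14.3%) and 2 lower (28.6%), or 1 lower without monocyte replicate 2. The higher gene was Cd4 (33.01, 29.9 and 28.4 against 0.0643, 1.02 and 0.224 CPM, 6.17 ± 0.37, and 7.62 without monocyte replicate 2). The T cell genes Cd3e, Cd3d, Cd3g and Lck had 0 counts in R1. Of 10 red pulp macrophage markers, 5 were higher in R1 (50%) and 1 lower (10%). Summed levels were 1483 to 1641 CPM in R1 and 475 to 594 CPM in monocytes. Spic, the factor that defines those spleen cells, measured 11.1, 13.8 and 15.6 CPM in R1 and 10.99, 19.9 and 14.7 CPM in monocytes and did not pass (adjusted p = 0.49). Of 16 dendritic cell markers, 5 were higher (31.25%, near the background) and 7 lower (43.75%). Among them, Cadm1 (54.5, 52.3 and 53.2 against 0.579, 0.887 and 0.168 CPM, 6.66 ± 0.23) and Siglech (6.73 ± 0.50, and 7.76 without monocyte replicate 2) were higher in R1 and Dpp4 was lower (-7.18 ± 0.72, and -10.71 without R1 replicate 1). The resident markers left in the monocyte libraries were lowest in replicate 3 for Lyve1, Folr2, Gas6 and C1qa. The part of any of these cells in the results was not tested.

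**Figure D4:**
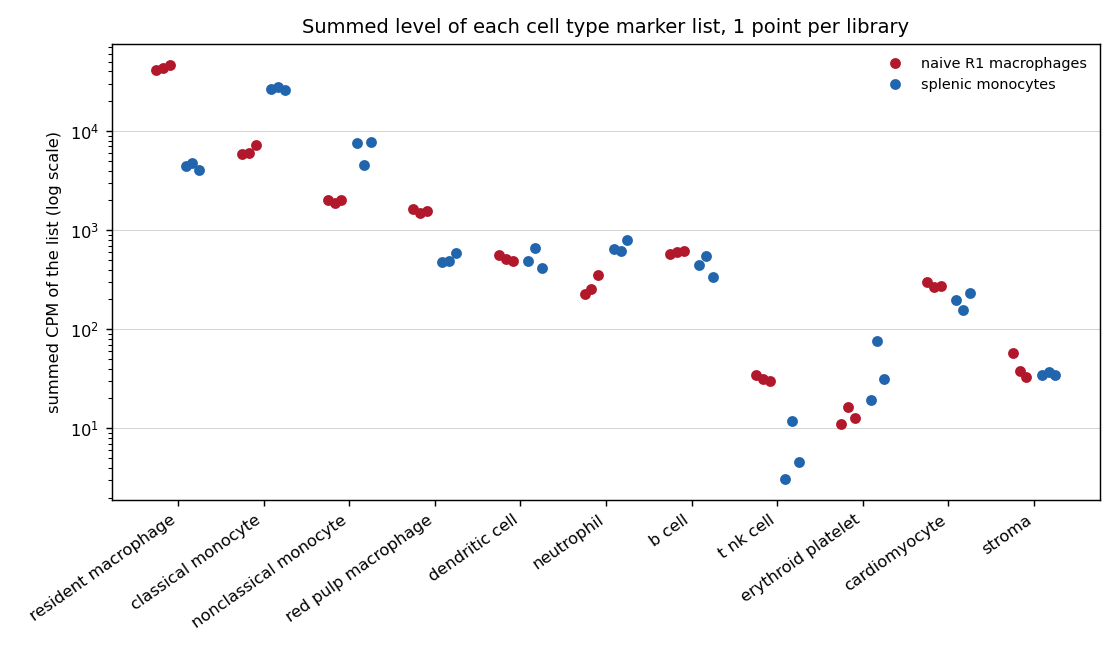
Summed CPM of each cell type marker list in the 3 R1 libraries (red) and the 3 monocyte libraries (blue) on a log axis, 1 point per library. The resident list lies at 41015 to 46785 CPM in R1 and 4029.6 to 4714 CPM in monocytes, and the classical monocyte list at 5838 to 7291 CPM in R1 and 26207 to 27870 CPM in monocytes. F13a1, which is in both lists, made up most of the classical sum in R1 and most of the resident sum in monocytes. The lists of the other cells lie below both in every library, except the nonclassical list, which lies between them in 2 of the 3 monocyte libraries. The nonclassical list includes the immediate early gene Nr4a1, at 2825, 892 and 1584 CPM in the monocytes.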

How the data were processed

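RNA was measured in sorted cells by bulk RNA-seq (TruSeq libraries, per the labels' protocols). The authors deposited whole-number counts per gene, made with featureCounts on the mm10 build, per the submitters' processing notes; the sources used here do not give the aligner, annotation or strand setting, and reads of overlapping, antisense or near-identical genes cannot be told apart. Symbols and positions came from RefSeq's GRCm38.p6 table, which matched 25275 of 27179 gene IDs.

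The deposited counts were tested with edgeR 4.0.16 in R 4.3.3: TMM scaling, filterByExpr (minimum count 10, total 15), robust quasi-likelihood dispersion over all 21 libraries and 7 groups (14 residual degrees of freedom), and Benjamini-Hochberg adjustment over 13275 genes, with calls under 0.05. Totals of 14140007 to 18980257 reads bound the precision of low genes. In a simulation with the same mean in every group, 100 genes were changed 2-fold and 100 4-fold, leaving out the lowest genes. Over 13022 genes, 79% of 2-fold and 98% of 4-fold changes were recovered. The simulation held far fewer changed genes than the data and no length shift like that of monocyte replicate 2. Its rates therefore do not measure recovery in the real comparison. Folds against 0 counts use a floor of 3 counts over the group. DESeq2 1.42.0, limma 3.58.1, other filters, a replicate block and leaving out each library were the alternatives. Same-numbered R1 and R3 libraries deviated together weakly (r = 0.117, 0.114 and 0.142), as did R1 and R2 (r = 0.112, 0.164 and 0.079). Each R1 library correlated best with its own number in both, and differently numbered pairs reached at most 0.0056. R1 and monocyte libraries did not all do so (r = 0.083, 0.087 and -0.041), while R1 replicate 1 and monocyte replicate 3 reached 0.167. Between R1 and monocytes, correlations this small cannot settle whether the numbers pair samples. In the heart every same-numbered pair was positive, and the main contrasts of R1 with R2 and R3 did not use this pairing. The main fit treated all libraries as independent, and counts with the replicate number as a block are given below.

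The comparison and the 36 lists were chosen with earlier results of these data known. Named genes are the sort markers, the 12 largest differences each way (mean log2 CPM of at least 5, no overlap), and from each list up to 6 with the smallest p, up to 3 against its majority and up to 3 abundant ones that did not pass; Cebpb, Fos, Nr4a1, Mki67 and some marker genes given only as having no counts fall outside the rule and were chosen after their values were seen. CAWS libraries entered the fit but no comparison. A few genes that the rule picks are not reported here.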

Additional observations from a re-analysis of the deposited data

Results flagged for a closer look

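The effect against the shared splenic monocytes differed between naive R1 and naive R3 at 3073 of the genes tested, by the direct contrast of the 2 heart populations in edgeR's quasi-likelihood fit. Ccr2, on which R1 and R3 were sorted apart, was lower in R1 by far (-8.51 ± 0.39, SE, adjusted p = 1.1e-10). The adhesion molecule Jaml, with 0 counts in R1, averaged 17.2 ± 5.28 CPM in R3 (SD, n = 3). Vsig4 was higher in R1 than in R3 (2.53 ± 0.22, adjusted p = 1.8e-08), as were Gas6 (1.79 ± 0.19) and the growth factor Igf1 (1.65 ± 0.19).

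The same effect differed between naive R1 and naive R2 at 946 genes (595, 588 and 602 without R1 replicate 3, R2 replicate 1 and R2 replicate 2). R2 carries the same Ccr2-negative label as R1, yet Ccr2 averaged 29.3 ± 9.25 CPM in R2 and was lower in R1 (-2.17 ± 0.36, adjusted p = 6.6e-04). The class II chain H2-Ab1, on which these populations were sorted apart, averaged 10613 ± 976 CPM in R2 (-4.13 ± 0.33, adjusted p = 3.4e-07). Lyve1 (1.92 ± 0.31) and Folr2 (1.33 ± 0.32, adjusted p = 0.014) were higher in R1. Folr2 no longer passed without R1 replicate 3, R2 replicate 1 or R2 replicate 2 (adjusted p = 0.055, 0.067 and 0.072), nor with DESeq2 (0.052).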

How the results depend on the processing

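With other size factors, other filters, DESeq2 or limma with sample weights, 3851 to 4456 genes were higher in R1 and 3719 to 4164 lower, and a fit on the compared groups alone called 3514 and 3200. Leaving out 1 library gave 3986 to 4191 higher and 3909 to 4103 lower. For R1 against R2, with 946 genes, the fit on the compared groups alone called 1531, and leaving out 1 library gave 588 to 805; the cause was not tested. For R1 against R3, with 3073 genes, the range was 2410 to 3013. R1 and monocyte libraries share only a replicate number, and not every library correlated best with its own number in the other group. With the replicate number as a block, 4449 genes were higher in R1 than in monocytes and 4159 lower, 3449 differed from R3 and 1188 from R2. Under the block Hspa1a was lower in R1 (adjusted p = 6.0e-05).

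Changes of sign were seen in named genes that had not passed, and the cause was not tested. Over the libraries left out in turn, the log2 fold change ran -0.11 to 0.14 for Atp2a2, -0.15 to 0.044 for Cx3cr1, -0.038 to 0.45 for Ftl1, -0.24 to 1.01 for H2-Aa, -0.28 to 0.48 for H2-Ab1, -0.13 to 0.013 for Hgf, -0.021 to 0.17 for Hmox1, -0.52 to 0.031 for Lrp1, -0.53 to 0.027 for Myh9, -0.053 to 0.31 for Pcna and -0.38 to 0.067 for Spic. With limma it was -0.054 for Atp2a2 and 0.045 for Spic, and with no filter -0.0013 for Atp2a2. Calls lost with limma were those of H2-DMb2 and Ltf, and calls lost on the compared groups alone those of H2-Eb1 and Vav3; H2-Eb1 did not pass with no filter either (adjusted p = 0.056). Calls gained with limma were those of Ftl1, H2-Aa, Hspa1a, Pcna and Syk, and calls gained with DESeq2 those of Ccl4, H2-Oa and Syk. Of the counts of called members over the 36 lists, 905 stayed within 1.5 times under the alternatives, 8 went above and 23 below; the stricter filter left 3 neutrophil markers lower in R1. Genes near the floor in 1 cell type are limited by depth, so their fold changes have wide errors.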
